A study of Mus musculus with 16 samples.

Results

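The 10 genes described here encode costimulatory receptors of T cells and their ligands, and were taken by name from the 19574 genes of the count table. They were chosen with earlier results of these data known, so their shares beside those of all genes are descriptions. They are Tnfrsf4 (ENSMUSG00000029075.7), Tnfsf4 (ENSMUSG00000026700.5), Tnfrsf18 (ENSMUSG00000041954.19), Tnfrsf9 (ENSMUSG00000028965.14), Tnfsf9 (ENSMUSG00000035678.9), Icos (ENSMUSG00000026009.15), Icosl (ENSMUSG00000000732.10), Cd28 (ENSMUSG00000026012.3), Cd27 (ENSMUSG00000030336.15) and Cd40 (ENSMUSG00000017652.17). RNA-seq was performed on colon tumors and on tumor-adjacent colon of the same mice after azoxymethane (AOM, a mutagen) and dextran sulfate sodium (DSS, which injures the colon epithelium), a model of inflammation-associated carcinogenesis. The knockout genotype was Il23rflflFoxp3YFP-Cre (hereafter Il23r ΔTreg, 5 mice), in which Cre under the Foxp3 promoter removes the IL-23 receptor from regulatory T (Treg) cells, and the control genotype was Foxp3YFP-Cre (hereafter WT, 3 mice), which carries the same Cre with an intact Il23r. Every mouse was male and received 10 mg/kg AOM at 7 to 8 weeks of age and then 3 cycles of 3.5% DSS for 5 days, each followed by 16 days of recovery. Each of the 8 mice gave 1 tumor and 1 adjacent normal library, so that the 4 groups were Il23r ΔTreg tumor (n = 5), WT tumor (n = 3), Il23r ΔTreg normal (n = 5) and WT normal (n = 3).

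T cells need a second signal beside the antigen receptor, and costimulatory receptors deliver it when they meet their ligands on antigen-presenting cells. CD28 and ICOS belong to the immunoglobulin superfamily, with CD28 present on naive T cells and ICOS appearing after activation. OX40 (Tnfrsf4), GITR (Tnfrsf18), CD137 (Tnfrsf9) and CD27 are TNF receptor family members that signal through TRAF adaptors to NF-kappaB, and in the gut OX40, GITR and ICOS are also carried at high levels by Treg cells, while CD40 acts on B cells, dendritic cells and macrophages.

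Total counts per library ranged from 34418067 to 60836474, and values are given as CPM, a gene's counts scaled to the total of its library after correction by the trimmed mean of M values (TMM), with the libraries of a group in the order of their mouse numbers. The share of counts on the ribosomal gene Rn18s ran from 0.343% to 29.7%, highest in the tumor of WT mouse2988, which also had the lowest TMM factor (0.670). The WT mice shared 1 cage label and the Il23r ΔTreg mice had others, so the effect of cage cannot be told apart from that of genotype. Il23r itself had 0 to 14 counts per library, and whole tissue does not check its deletion in Treg cells. Epithelial markers were abundant in every library (summed 6530 to 12500 CPM), and the 5 smooth muscle markers fell in tumors of both genotypes, to 139 to 1150 CPM in Il23r ΔTreg tumors, against 5290 to 7620 CPM in Il23r ΔTreg normal colon, and to 360 to 593 CPM in WT tumors, against 4820 to 6190 CPM in WT normal colon.

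The question for these genes was whether costimulatory transcripts differ between tumor and adjacent colon, and whether that differs when Treg cells lack the IL-23 receptor. In Il23r ΔTreg mice 3 of the 10 genes rose in tumors (Tnfrsf9, Tnfsf9 and Tnfsf4), 3 fell (Cd28, Cd27 and Icosl) and 4 did not pass the test. In WT mice 8 of the 10 rose in tumors, none fell, and Icosl and Cd28 did not pass the test. Calls required a log2 fold change beyond 1 together with a Benjamini-Hochberg adjusted p under 0.05 in edgeR's quasi-likelihood test over the 17122 genes tested, which included all 10 members. Across all genes tested, the Il23r ΔTreg tumors had 9.53% called higher and 16.1% called lower, and the WT tumors had 12.1% called higher and 12.9% called lower. The median log2 fold change of the 10 genes was -0.01 in Il23r ΔTreg mice and 2.28 in WT mice, while the median of all genes was -0.0013 in Il23r ΔTreg mice and -0.0114 in WT mice. In Il23r ΔTreg mice the tumor and normal values did not overlap for 3 genes that were higher and 3 that were lower in tumors (17.2% of all genes were higher and 20% lower in this way), and in WT mice for 8 that were higher and 0 that were lower (23.4% of all genes were higher and 25.4% lower).

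**Figure D1:**
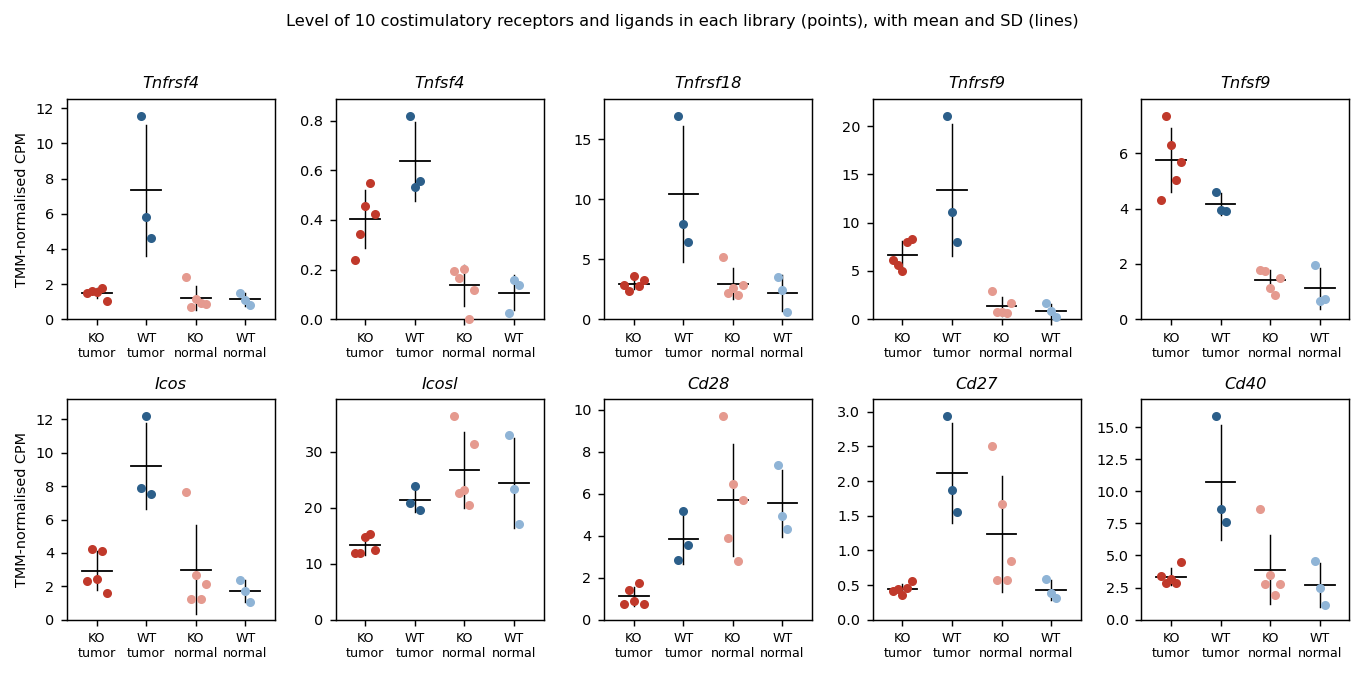
TMM-normalised CPM (y axis, linear, from 0) of the 10 genes in each library (points) of the 4 groups (x axis), with the group mean (horizontal line) and SD (vertical line), n = 5 for Il23r ΔTreg (KO) and n = 3 for WT. The WT tumors stand above all other libraries for Tnfrsf4 and Tnfrsf18, and for Cd40 (7.61 to 15.8 CPM) above all but 1 Il23r ΔTreg normal library (8.60 CPM), whereas Tnfrsf9 and Tnfsf9 are high in tumors of both genotypes.

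CD137 and its ligand rose in the tumors of both genotypes. Tnfrsf9, which encodes CD137, a receptor that appears on T cells after activation, was at 6.14, 5.64, 5.00, 7.99 and 8.27 CPM in Il23r ΔTreg tumors, against 2.91, 0.729, 0.750, 0.682 and 1.63 CPM in Il23r ΔTreg normal colon. In WT tumors it was at 21.1, 11.1 and 7.96 CPM, against 1.64, 0.833 and 0.214 CPM in WT normal colon. The tumor was higher in 5 of 5 Il23r ΔTreg mice and 3 of 3 WT mice, with no overlap between tumor and normal groups in either genotype. The log2 fold change was 2.30 ± 0.50 (SE, edgeR adjusted p = 0.0014) in Il23r ΔTreg mice and 3.91 ± 0.69 (edgeR adjusted p = 0.00057) in WT mice, where it was the largest among the 10 genes. Tnfsf9, the CD137 ligand of antigen-presenting cells, was at 4.32, 7.35, 6.32, 5.05 and 5.69 CPM in Il23r ΔTreg tumors, against 1.77, 1.76, 1.14, 0.888 and 1.5 CPM in Il23r ΔTreg normal colon. WT tumors held 4.62, 3.94 and 3.91 CPM of Tnfsf9, against 1.97, 0.653 and 0.720 CPM in WT normal colon. Every tumor library exceeded every normal library of its genotype. Tnfsf9 rose by a log2 fold change of 2.03 ± 0.30 in Il23r ΔTreg mice (edgeR adjusted p = 6.4e-05) and 1.91 ± 0.39 in WT mice (edgeR adjusted p = 0.0016). Each of these 4 calls held in every one of the alternative settings run.

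Promoters are shown for CD137, called higher in tumors of both genotypes, and for its chromosome 4 relatives OX40 and GITR, called higher in WT tumors and not called in Il23r ΔTreg tumors. The RefSeq promoter table (GRCm38.p6, 250 bases before to 50 after each annotated start) holds 5 of the 10 genes, and Tnfrsf9 has 2 starts in it, of which the downstream one is printed. All 3 lie on the plus strand, and capitals mark matches on either strand to the NF-kappaB consensus or to the AP-1 motif TGANTCA.
Tnfrsf9, chr4:150927749-150928048: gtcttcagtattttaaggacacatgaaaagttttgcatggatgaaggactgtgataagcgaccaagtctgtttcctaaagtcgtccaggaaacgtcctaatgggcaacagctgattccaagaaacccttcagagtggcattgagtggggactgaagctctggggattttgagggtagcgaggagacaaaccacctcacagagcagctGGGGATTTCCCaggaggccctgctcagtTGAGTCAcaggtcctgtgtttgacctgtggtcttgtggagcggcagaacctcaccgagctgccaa
Tnfrsf4, chr4:156013445-156013744: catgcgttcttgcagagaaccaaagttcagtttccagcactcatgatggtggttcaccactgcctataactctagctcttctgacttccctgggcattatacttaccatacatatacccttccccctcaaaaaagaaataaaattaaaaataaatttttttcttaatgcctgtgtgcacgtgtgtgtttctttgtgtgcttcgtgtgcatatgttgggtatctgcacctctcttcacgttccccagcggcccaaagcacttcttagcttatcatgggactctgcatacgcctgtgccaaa
Tnfrsf18, chr4:156026072-156026371: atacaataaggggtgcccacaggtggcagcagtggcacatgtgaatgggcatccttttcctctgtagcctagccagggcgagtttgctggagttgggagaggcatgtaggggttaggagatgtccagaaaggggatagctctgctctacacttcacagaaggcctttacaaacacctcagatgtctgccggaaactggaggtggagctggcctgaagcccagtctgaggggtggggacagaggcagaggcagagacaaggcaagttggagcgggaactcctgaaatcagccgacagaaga
The Tnfrsf9 sequence holds 2 overlapping NF-kappaB matches, which begin at -43 and -42 relative to the start, and 1 AP-1 match at -15. The upstream Tnfrsf9 start and the Tnfrsf4, Tnfrsf18, Icosl and Cd27 windows hold 0 matches to either motif. Of 32851 promoter windows of this length, 4.51% hold an NF-kappaB match and 7.81% an AP-1 match. A match describes the letters and does not show binding.

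OX40 and GITR, whose genes are neighbours in the RefSeq annotation, rose in WT tumors and were not called in Il23r ΔTreg tumors. Tnfrsf4, which encodes OX40, was at 1.5, 1.62, 1.58, 1.76 and 1.03 CPM in Il23r ΔTreg tumors, against 2.39, 0.673, 1.14, 0.950 and 0.875 CPM in Il23r ΔTreg normal colon. WT tumors held 11.6, 5.79 and 4.64 CPM of Tnfrsf4, against 1.51, 1.08 and 0.798 CPM in WT normal colon. All 3 WT tumors lay above all other libraries. The log2 fold change of Tnfrsf4 was 0.32 ± 0.35 in Il23r ΔTreg mice (edgeR adjusted p = 0.48; higher in 4 of 5 mice) and 2.70 ± 0.47 in WT mice (edgeR adjusted p = 0.00053; higher in 3 of 3). Tnfrsf18, which encodes GITR, was at 2.88, 2.36, 3.57, 2.74 and 3.25 CPM in Il23r ΔTreg tumors, against 5.17, 2.17, 2.62, 2.0 and 2.89 CPM in Il23r ΔTreg normal colon. In WT mice the tumors were at 16.95, 7.93 and 6.46 CPM, against 3.53, 2.43 and 0.584 CPM in normal colon. The Il23r ΔTreg groups overlapped and the WT groups did not. Tnfrsf18 changed by a log2 fold change of -0.0039 ± 0.40 in Il23r ΔTreg mice (edgeR adjusted p = 0.99) and 2.26 ± 0.54 in WT mice (edgeR adjusted p = 0.0041).

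The ligand of OX40, Tnfsf4, was scarce, with 0 to 33 counts per library. Il23r ΔTreg tumors held 0.239, 0.343, 0.457, 0.548 and 0.426 CPM, against 0.194, 0.168, 0.203, 0 and 0.118 CPM in Il23r ΔTreg normal colon, where the count of 0 in mouse2904 allows up to 0.062 CPM. WT tumors held 0.819, 0.533 and 0.558 CPM, against 0.0269, 0.158 and 0.136 CPM in WT normal colon. Tumor and normal values did not overlap in either genotype. Tnfsf4 rose by a log2 fold change of 1.54 ± 0.56 in Il23r ΔTreg mice (edgeR adjusted p = 0.033) and 2.50 ± 0.76 in WT mice (edgeR adjusted p = 0.016). With mouse as a replicate block in edgeR both calls were lost, with log2 fold changes of 1.62 (adjusted p = 0.0859) in Il23r ΔTreg mice and 2.55 (adjusted p = 0.0536) in WT mice. The Il23r ΔTreg call was also lost without mouse2902 (1.68), mouse2903 (1.67), mouse2904 (1.09) or mouse3883 (1.46), and the WT call without mouse2988 (1.86) or mouse2990 (2.78).

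**Figure D2:**
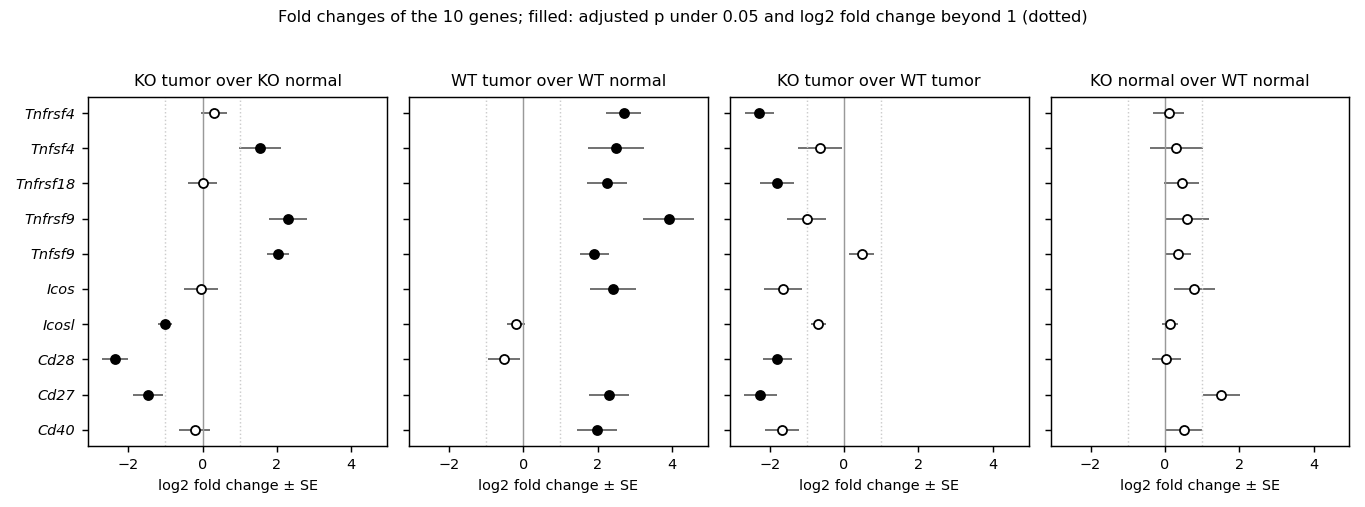
Log2 fold change (x axis) with its SE (bars) of the 10 genes (rows) in 4 comparisons from 1 edgeR fit of 16 libraries, where filled points are the called genes. Tumor over normal gave 3 higher and 3 lower genes in Il23r ΔTreg (KO) mice and 8 higher genes in WT mice, Il23r ΔTreg tumor over WT tumor gave 4 lower genes, and normal over normal gave 0.

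Cd27 moved in opposite directions in the 2 genotypes. CD27 is carried by naive and memory T cells. Cd27 was at 0.407, 0.438, 0.356, 0.453 and 0.560 CPM in Il23r ΔTreg tumors, against 2.50, 0.579, 1.66, 0.579 and 0.841 CPM in Il23r ΔTreg normal colon. In WT tumors it was at 2.93, 1.88 and 1.56 CPM, against 0.593, 0.383 and 0.311 CPM in WT normal colon. The tumor was lower in 5 of 5 Il23r ΔTreg mice and higher in 3 of 3 WT mice, with no overlap in either genotype. Cd27 fell in Il23r ΔTreg tumors (log2 fold change -1.47 ± 0.41, edgeR adjusted p = 0.0075) and rose in WT tumors (2.30 ± 0.54, edgeR adjusted p = 0.0038). Without Il23r ΔTreg mouse2901, whose normal colon held the highest Cd27 of that group, the fall was -1.02 and was no longer called (edgeR adjusted p = 0.052).

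**Figure D3:**
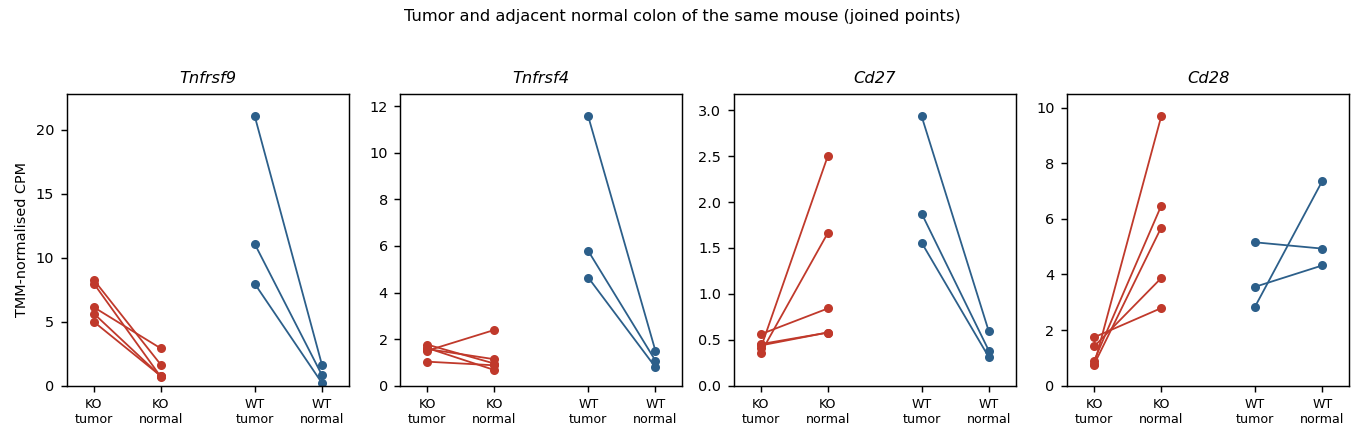
TMM-normalised CPM (y axis, linear, from 0) of Tnfrsf9, Tnfrsf4, Cd27 and Cd28 in tumor and adjacent normal colon, with lines joining the 2 libraries of 1 mouse (5 Il23r ΔTreg, KO, in red and 3 WT in blue). Tnfrsf9 is higher in the tumor of all 8 mice, Cd27 is lower in the tumor of 5 of 5 Il23r ΔTreg mice and higher in 3 of 3 WT mice, and Cd28 is lower in the tumor of 5 of 5 Il23r ΔTreg and 2 of 3 WT mice.

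Within the CD28 family, Cd28 fell in Il23r ΔTreg tumors and Icos rose in WT tumors. Cd28, the receptor for CD80 and CD86, was at 0.744, 1.41, 0.898, 1.74 and 0.762 CPM in Il23r ΔTreg tumors, against 9.68, 3.87, 6.47, 2.79 and 5.69 CPM in Il23r ΔTreg normal colon. WT tumors held 2.85, 5.16 and 3.56 CPM of Cd28, against 7.36, 4.93 and 4.32 CPM in WT normal colon. Every Il23r ΔTreg tumor was below every other library of the series, and the WT groups overlapped. Cd28 fell in Il23r ΔTreg tumors by a log2 fold change of -2.36 ± 0.35 (edgeR adjusted p = 7.1e-05), a call that held in all alternative settings, and the WT difference was -0.52 ± 0.43 (edgeR adjusted p = 0.36). Icos was at 2.30, 4.23, 2.46, 4.12 and 1.57 CPM in Il23r ΔTreg tumors, against 7.65, 1.25, 2.66, 1.26 and 2.14 CPM in Il23r ΔTreg normal colon. WT tumors held 7.89, 12.2 and 7.55 CPM of Icos, against 2.4, 1.71 and 1.07 CPM in WT normal colon. The Il23r ΔTreg values overlapped, with the tumor higher in 2 of 5 mice, and the WT values did not. The log2 fold change of Icos was -0.03 ± 0.46 in Il23r ΔTreg mice (edgeR adjusted p = 0.97) and 2.42 ± 0.62 in WT mice (edgeR adjusted p = 0.0068).

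Icosl, the ligand of ICOS on B cells, other antigen-presenting cells and non-immune cells, was at 11.9, 11.9, 14.9, 15.4 and 12.5 CPM in Il23r ΔTreg tumors, against 36.4, 22.6, 23.2, 20.5 and 31.4 CPM in Il23r ΔTreg normal colon. WT tumors held 20.9, 23.9 and 19.6 CPM, against 33.0, 23.3 and 17.1 CPM in WT normal colon. Il23r ΔTreg tumors were below all other libraries, and the WT tumor values lay within the range of WT normal colon. Icosl fell in Il23r ΔTreg tumors by a log2 fold change of -1.01 ± 0.19 (edgeR adjusted p = 0.00044), and the WT difference was -0.19 ± 0.24 (edgeR adjusted p = 0.56). The Il23r ΔTreg value stood at the fold limit and fell short of it in 10 of 23 alternative settings, with adjusted p still under 0.05. Among these were -0.84 without mouse2901, -0.93 without mouse3883, -0.90 with library size as the only scaling, -0.98 with limma and -0.99 with mouse as a replicate block.

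Cd40, the receptor through which helper T cells activate antigen-presenting cells, was at 3.4, 2.86, 3.20, 2.84 and 4.48 CPM in Il23r ΔTreg tumors, against 8.60, 2.75, 3.45, 1.90 and 2.76 CPM in Il23r ΔTreg normal colon. WT tumors held 15.8, 8.63 and 7.61 CPM of Cd40, against 4.55, 2.45 and 1.13 CPM in WT normal colon. The Il23r ΔTreg groups overlapped, with the tumor higher in 3 of 5 mice, and the WT groups did not. Cd40 changed by a log2 fold change of -0.21 ± 0.41 in Il23r ΔTreg mice (edgeR adjusted p = 0.70) and rose by 1.98 ± 0.54 in WT mice (edgeR adjusted p = 0.01). The study annotated Icos and Cd40 in a heatmap of these same samples, so their direction is not independent evidence.

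Comparing Il23r ΔTreg tumors with WT tumors asks how the deletion bears on the tumors themselves, and uses the tumor libraries already described. Of the 10 genes, 4 were called lower and 0 higher in Il23r ΔTreg tumors, where 1.58% of all genes were called lower and 0.146% higher. Tnfrsf4 averaged 1.5 ± 0.28 CPM in Il23r ΔTreg tumors (SD, n = 5) and 7.33 ± 3.71 CPM in WT tumors (SD, n = 3), a log2 fold change of -2.28 ± 0.39 (edgeR adjusted p = 0.02). Cd27 averaged 0.443 ± 0.0755 CPM in Il23r ΔTreg tumors and 2.12 ± 0.720 CPM in WT tumors, a log2 fold change of -2.25 ± 0.45 (edgeR adjusted p = 0.026). For Tnfrsf18 the log2 fold change was -1.81 ± 0.45 (edgeR adjusted p = 0.047) and for Cd28 -1.80 ± 0.39 (edgeR adjusted p = 0.031). These 4 genes, with Icos, Icosl and Cd40, had no overlap between the tumor groups, so that 7 of 10 were lower in every Il23r ΔTreg tumor and 0 were higher (7.09% of all genes were lower in this way and 9.34% higher). The median of the 10 log2 fold changes was -1.66, beside 0.0114 over all genes.

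The remaining 6 genes did not pass the test between the tumors. Cd40 gave a log2 fold change of -1.67 ± 0.46 (edgeR adjusted p = 0.07), Icos -1.65 ± 0.51 (edgeR adjusted p = 0.10) and Icosl -0.69 ± 0.21 (edgeR adjusted p = 0.098). With mouse as a replicate block in limma's voom, Icos (-1.79, adjusted p = 0.0433) and Cd40 (-1.56, adjusted p = 0.0436) were also called lower, which made 6 of 10, and voom without a mouse term called them as well (Icos -1.78, adjusted p = 0.0383, and Cd40 -1.55, adjusted p = 0.0474). Tnfrsf9 gave -1.01 ± 0.53 (edgeR adjusted p = 0.28), Tnfsf4 -0.65 ± 0.60 (edgeR adjusted p = 0.51) and Tnfsf9 0.47 ± 0.34 (edgeR adjusted p = 0.41), the last being the single gene with a higher fitted level in Il23r ΔTreg tumors. The number called depended on single mice: it was 0 without Il23r ΔTreg mouse2902, mouse2903 or mouse3883 or WT mouse2988 or mouse2989, where 0% to 0.0176% of all genes were called lower, also 0 without the tumor library of WT mouse2988 alone, and 1 without that of WT mouse2989 alone. In the 5 fits without a whole mouse the log2 fold change of Tnfrsf4 was -2.36, -2.35, -2.18, -1.80 and -2.43 in the order of the mice named. The call of Tnfrsf18 was also lost with limma (-1.68, adjusted p = 0.0692), with no filter on low counts (-1.79, edgeR adjusted p = 0.0539) and without Il23r ΔTreg mouse2901 (-1.80) or mouse2904 (-1.79) and that of Cd28 without WT mouse2990 (-1.86). Without the tumor of WT mouse2988, the fitted differences were -1.80 for Tnfrsf4, -1.28 for Tnfrsf18, -1.98 for Cd28 and -1.95 for Cd27, each still lower in Il23r ΔTreg tumors.

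Adjacent normal colon was compared between genotypes as the background of the tumor comparison. None of the 10 genes was called (0 by edgeR, 0 by DESeq2 and 0 by limma), where 0.00584% of all genes were called higher and 0% lower. At an unadjusted p under 0.05 edgeR gave 1 of the 10, Cd27, with 1.23 ± 0.837 CPM in Il23r ΔTreg normal colon (SD, n = 5) and 0.429 ± 0.146 CPM in WT normal colon (SD, n = 3), a log2 fold change of 1.52 ± 0.49 (edgeR adjusted p = 0.96). All 10 fitted log2 fold changes were positive, from 0.04 for Cd28 to 1.52 for Cd27, but without mouse2901 those of Tnfrsf4 (-0.31), Cd28 (-0.23) and Icosl (-0.0005) were negative, and for 0 genes were the groups free of overlap (1.59% of all genes higher, 1.4% lower). The normal colon of Il23r ΔTreg mouse2901 held the highest value of its group for 9 of the 10 genes, Tnfsf4 being the exception.

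Whether the tumor effect itself differed between genotypes was tested as an interaction (the Il23r ΔTreg tumor log2 fold change minus that of WT). In edgeR 0 of the 10 genes passed, as did 0% of all genes in either direction. At an unadjusted p under 0.05 there were 7 of the 10, beside 2370 of 17122 genes, and DESeq2 called 6 lower (Tnfrsf4, Tnfrsf18, Icos, Cd28, Cd27 and Cd40), where it called 1.91% of all genes lower and 0.128% higher, while limma called 0. The fitted difference was negative for 9 of the 10 genes. It was -3.78 ± 0.68 for Cd27 (edgeR adjusted p = 0.16, DESeq2 adjusted p = 0.000304), -2.38 ± 0.57 for Tnfrsf4 (edgeR adjusted p = 0.16) and -1.85 ± 0.55 for Cd28 (edgeR adjusted p = 0.19). Tnfsf9 gave the exception, 0.12 ± 0.48 (edgeR adjusted p = 0.91).

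In whole tissue, fewer cells of a type and less RNA per cell cannot be told apart, so markers of cell types in the tissue were measured beside them. Of 10 T cell markers (Cd3d, Cd3e, Cd3g, Cd247, Cd4, Cd8a, Cd8b1, Lck, Zap70 and Lat), 8 were called lower and 0 higher when Il23r ΔTreg tumors were set against WT tumors, with summed levels of 24.9 to 47.0 CPM in Il23r ΔTreg tumors and 100 to 137 CPM in WT tumors. In Il23r ΔTreg tumors against their normal colon 1 of the 10 was higher (Zap70) and 1 lower (Cd4), at 24.9 to 47.0 CPM in tumors and 34.1 to 103 CPM in normal colon, and in WT tumors 9 were higher and 0 lower, at 100 to 137 CPM in tumors and 28.0 to 76.4 CPM in normal colon. Of 8 B cell markers, all 8 fell in Il23r ΔTreg tumors (2.74 to 13.0 CPM summed, against 20.8 to 336 CPM in Il23r ΔTreg normal colon) and 0 changed in WT tumors (26.3 to 122 CPM, against 35.2 to 73.4 CPM in WT normal colon). Between the tumors 6 of the 8 B cell markers were lower in Il23r ΔTreg mice and 0 higher. No T or B cell marker was at 0 counts in any library. The 6 Treg markers summed to 15.9 to 19.2 CPM in Il23r ΔTreg tumors and 19.4 to 35.7 CPM in WT tumors. Between the tumors, 3 of 7 macrophage markers were called lower in Il23r ΔTreg mice, of 6 NK cell markers 3, of 7 dendritic cell markers 0 and of 6 Treg markers 0. The median log2 fold changes of these lists were -0.90, -1.97, -1.30 and -1.29 in that order, so the lists with 0 calls also had lower fitted medians. Dendritic cell markers summed to 24.3 to 50.3 CPM in Il23r ΔTreg tumors and 56.5 to 82.8 CPM in WT tumors. The calls between the tumors depended on single mice in these lists as well: without Il23r ΔTreg mouse2902, mouse2903 or mouse3883 or WT mouse2988 or mouse2989, 0 T cell, B cell, macrophage and NK cell markers were called, with median log2 fold changes of -2.18 to -1.97 for the T cell list and -3.93 to -2.67 for the B cell list, against -2.15 and -3.66 with all mice. Against normal colon, the T cell markers called higher in WT tumors numbered 5 without WT mouse2990, and those called lower in Il23r ΔTreg tumors 3 without mouse2904 and 2 without mouse3883. All 5 neutrophil markers rose in tumors of both genotypes, as Tnfrsf9, Tnfsf9 and Tnfsf4 did, at 140 to 621 CPM summed in Il23r ΔTreg tumors, against 12.1 to 142 CPM in Il23r ΔTreg normal colon, and 191 to 253 CPM in WT tumors, against 5.55 to 24.1 CPM in WT normal colon. The part of these cell types in the differences of the 10 genes was not tested.

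Set against the CD3 chains of the same library, the receptors differed in pattern. The geometric mean of Cd3d, Cd3e, Cd3g and Cd247 had a median of 1.62 CPM in Il23r ΔTreg tumors, 7.12 CPM in WT tumors, 1.98 CPM in Il23r ΔTreg normal colon and 1.90 CPM in WT normal colon. On the log2 scale relative to this mean, Tnfrsf9 lay at 1.62 to 2.54 in Il23r ΔTreg tumors and 0.49 to 1.23 in WT tumors, and both were above -1.89 to 0.07 in Il23r ΔTreg normal colon and -1.95 to -1.11 in WT normal colon. Cd28 relative to CD3 was lower in tumors of both genotypes, at -0.94 to -0.27 in Il23r ΔTreg tumors and -1.65 to -0.46 in WT tumors, against 0.65 to 1.87 in Il23r ΔTreg normal colon and 1.04 to 2.32 in WT normal colon. For Tnfrsf4 the range relative to CD3 was -0.45 to 0.06 in Il23r ΔTreg tumors and -0.30 to 0.36 in WT tumors, so that the tumor groups overlapped on this scale though not in CPM. Tnfrsf18, Icos and Cd27 relative to CD3 also overlapped between the tumor groups. Whole tissue does not show which cells carried these receptors, so a ratio to CD3 is not a level per T cell. These ratios are descriptions without a test.

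**Figure D4:**
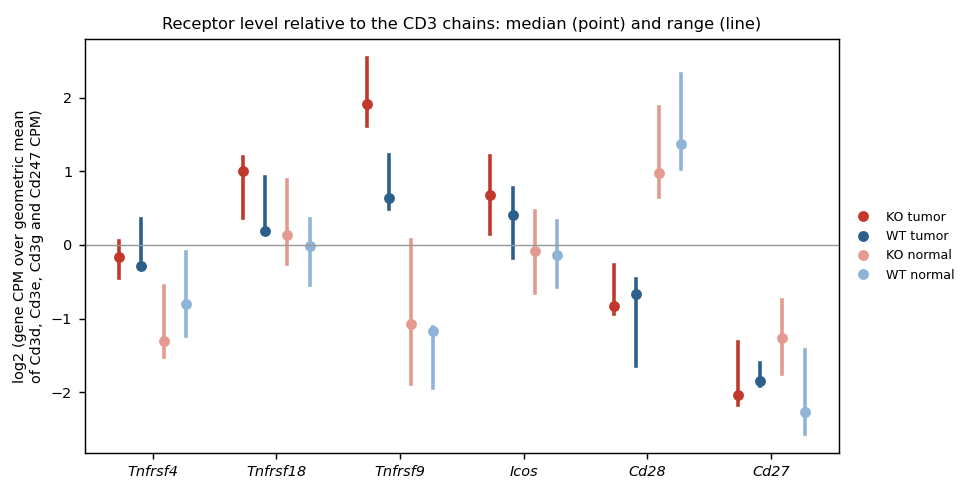
Log2 ratio (y axis) of 6 receptors (x axis) to the geometric mean CPM of Cd3d, Cd3e, Cd3g and Cd247 in the same library, as the median (point) and range (line) of Il23r ΔTreg tumor (KO, n = 5), WT tumor (n = 3), Il23r ΔTreg normal (n = 5) and WT normal (n = 3). Tnfrsf9 is highest in Il23r ΔTreg tumors (median 1.92) and the Cd28 median is -0.83 in Il23r ΔTreg tumors and -0.67 in WT tumors, against 0.98 in Il23r ΔTreg normal and 1.38 in WT normal colon. The ratio is not a level per T cell.

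Cd80, a ligand of CD28, rose in WT tumors (4.36, 4.36 and 5.2 CPM, against 1.24, 1.13 and 1.69 CPM in WT normal colon; log2 fold change 1.77 ± 0.32, edgeR adjusted p = 0.00071). In Il23r ΔTreg mice Cd80 gave 0.71 ± 0.24 (edgeR adjusted p = 0.025), under the fold limit. Cd86, the other CD28 ligand, gave -0.13 ± 0.27 in Il23r ΔTreg mice (edgeR adjusted p = 0.72) and 0.95 ± 0.35 in WT mice (edgeR adjusted p = 0.043). Ctla4, the inhibitory receptor that shares those ligands and lies between Cd28 and Icos on chromosome 1, rose in WT tumors (2.66 ± 0.66, edgeR adjusted p = 0.0052) and gave 0.75 ± 0.48 in Il23r ΔTreg mice (edgeR adjusted p = 0.22), where it was called higher without mouse2901 (1.63, edgeR adjusted p = 0.00329). Tnfsf18, the GITR ligand, was scarce but rose in both genotypes, by 2.52 ± 0.74 in Il23r ΔTreg mice (edgeR adjusted p = 0.01) and 3.11 ± 1.03 in WT mice (edgeR adjusted p = 0.025), the WT call being lost without mouse2988 (1.87) or mouse2990 (3.79) and with limma's voom (3.07). Cd40lg was not called in any comparison, and Cd70, the CD27 ligand, with at most 0.216 CPM, was too low to be tested. Of the 5 partners tested, 1 was called higher in Il23r ΔTreg tumors (9.53% of all genes) and 3 in WT tumors (12.1%) against their normal colon. In these comparisons 0 were called lower (16.1% and 12.9% of all genes), and 0 were called between the tumors. Cd80 (-0.59 ± 0.27), Cd86 (-0.87 ± 0.31) and Ctla4 (-1.33 ± 0.53) were still lower in every Il23r ΔTreg tumor than in every WT tumor. The tumor groups overlapped for Tnfsf18 and Cd40lg, and 7.09% of all genes were lower without overlap.

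Of 12 further costimulatory genes tested, 0 rose and 2 fell in Il23r ΔTreg tumors (Cd48, -1.22 ± 0.26, and Cd2, -1.49 ± 0.42), and 6 rose and 0 fell in WT tumors, the 4 with the smallest p being Tnfrsf25 (1.15 ± 0.24), Tnfsf14 (1.97 ± 0.54), Cd6 (1.74 ± 0.51) and Cd5 (1.85 ± 0.56). Of all genes, 9.53% rose and 16.1% fell in Il23r ΔTreg tumors, so the 2 falls were close to the background. In WT tumors 12.1% of all genes rose and 12.9% fell. Between the tumors, where 1.58% of all genes were called lower, 4 of the 12 were lower in Il23r ΔTreg mice. They were the T cell adhesion and modulatory receptors Cd2 (-2.48 ± 0.47), Cd5 (-2.50 ± 0.48) and Cd6 (-2.29 ± 0.43), and Cd48 (-1.5 ± 0.29), a ligand of CD2 in mice. These 4 calls, like those of the members, were lost without the tumor library of WT mouse2988 (Cd2 -2.24, Cd5 -2.39, Cd6 -2.22 and Cd48 -1.53), and without any 1 of Il23r ΔTreg mouse2902, mouse2903 or mouse3883 or WT mouse2989 (from -2.60 to -2.35 for Cd2, -2.78 to -2.37 for Cd5, -2.43 to -2.20 for Cd6 and -1.60 to -1.35 for Cd48). The calls for Cd5 and Cd6 in WT tumors were lost without WT mouse2989 (1.64 and 1.63) or mouse2990 (1.71 and 1.57), that for Tnfsf14 without mouse2989 (1.67), that for Tnfrsf25 without mouse2990 (0.99), and those for Cd2 and Cd48 in Il23r ΔTreg tumors without mouse2901 (-0.93 and -0.87).

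Of 22 adaptor and signaling genes downstream of these receptors, 2 rose and 1 fell in Il23r ΔTreg tumors. In WT tumors 3 rose and 1 fell. Among all genes tested, 9.53% rose and 16.1% fell with Il23r ΔTreg, while 12.1% rose and 12.9% fell with WT. The rises in this list were thus close to the background and the falls below it, so the genes named next do not mark an excess. Prkcq, the kinase PKC-theta that links CD28 to NF-kappaB, rose by 1.74 ± 0.40 in Il23r ΔTreg tumors (edgeR adjusted p = 0.002) and 2.41 ± 0.52 in WT tumors (edgeR adjusted p = 0.0024). The Il23r ΔTreg tumor and normal values of Prkcq overlapped, with the tumor higher in 4 of 5 mice. Mouse2901 was the exception, at 3.76 CPM in the tumor against 4.42 CPM in normal colon. Rel, the NF-kappaB subunit c-Rel, rose by 1.47 ± 0.30 in Il23r ΔTreg tumors (edgeR adjusted p = 0.0008) and by 1.41 ± 0.38 in WT tumors (edgeR adjusted p = 0.0094), the WT call being lost without mouse2989 (0.85). Traf5, an adaptor of OX40 and CD27, fell in Il23r ΔTreg tumors (-1.10 ± 0.16, edgeR adjusted p = 6.8e-05; -0.97 without mouse2901, under the fold limit), while in WT tumors Pik3r1 fell (-1.28 ± 0.29; -0.88 without mouse2990). Between the tumors Traf1, an adaptor of CD137, was lower in Il23r ΔTreg mice (-1.42 ± 0.25), a call lost without the tumor of WT mouse2988 (-1.36). The Traf1 call was also lost without Il23r ΔTreg mouse2902, mouse2903 or mouse3883 or WT mouse2989 (-1.54 to -1.37).

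The genes whose levels across the 16 libraries were most like each member were taken by the Pearson correlation of log2(CPM + 1) outside the 10 members. For Icos these were Ctla4 (0.955) and Lcp2 (0.955), for Cd28 Lax1 (0.973) and Ly9 (0.966), for Cd40 Trbc2 (0.98) and Cst7 (0.96), and for Tnfrsf4 Bcl2a1b (0.931) and Il2rb (0.928). Tnfrsf18 was most like Fxyd5 and Dok1 (0.953 each), Cd27 most like Septin1 and Ptpn6 (0.939 each) and Icosl most like Derl3 (0.963) and Vcam1 (0.961). Tnfrsf9 was most like Ier5l (0.976) and Smim3 (0.975), Tnfsf9 most like Sema3f (0.976) and Tnni2 (0.972), and Tnfsf4 most like A930001C03Rik (0.947) and Defa20 (0.915). Among the 10 themselves the highest correlation was between Tnfrsf18 and Cd40 (0.963) and the lowest between Tnfsf9 and Cd28 (-0.697). The libraries share mice and fall into tumor and normal, so these values carry no test.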

How the data were processed

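Reads were trimmed by the authors (fastp 0.20.0), and Salmon 1.4.0 estimated transcript abundance using Gencode version 21 as the authors name it. The gene identifiers carry later versions, so the release is not known and no coordinates of counted genes are given. The authors deposited estimated counts per gene as whole numbers, which were used as they stand. Other deposited tables hold the authors' normalized values and their limma (3.50.3) and DESeq2 (1.34.0) fold changes, p-values and scores, and were not used, nor were 64 columns whose names map to no mouse.

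In R 4.3.3, genes were kept by edgeR's filterByExpr (minimum count 10; 17122 of 19574), normalised by TMM and tested in edgeR 4.0.16 (quasi-likelihood model, 4 groups in 1 fit, no block, Benjamini-Hochberg adjustment), a procedure first tested on simulated data. The study's thresholds (adjusted p under 0.05, log2 fold change beyond 1) made a call. SE is the size of the unshrunken log2 fold change over the root of F, while the printed log2 fold changes carry edgeR's slight shrinkage. Alternatives used limma 3.58.1 (prior count 3), DESeq2 1.42.0, other scalings, filters, blocks and left-out mice. Tumor and normal libraries pair by mouse number in the labels; the deviations of the 2 libraries of a mouse from the group means correlated at -0.399 to 0.488 over genes, and mouse as a replicate block was a factor in edgeR within genotypes and for the interaction, and a within-mouse correlation of 0.127 in limma's voom between genotypes. Ratios to CD3 added 0.5 counts per library. For a count of 0, the limit is 3 counts and covers counting error only. Named genes were all members and partners, and up to 4 called genes by smallest p per further list and comparison. Some genes that this rule picks are not reported here. The members and lists were chosen with earlier results of these data known.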

Additional observations from a re-analysis of the deposited data

Results flagged for a closer look

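In the adjacent normal colon of Il23r ΔTreg mice, the library of mouse2901 stood far from the other 4 for 4 of the 10 genes. It held 2.39 CPM of Tnfrsf4, 5.17 CPM of Tnfrsf18, 7.65 CPM of Icos and 8.60 CPM of Cd40, and its gap to the next library took 0.731, 0.72, 0.781 and 0.769 of the group's range for these genes, in that order, above Dixon's limit of 0.710 for 5 samples. Such gaps were looked for in 20 sets of 5 libraries, of which chance flags about 1 in 20, and the 4 flags come from 1 library. The same library had the highest summed B cell markers (336 CPM, against 20.8 to 171 CPM in the other Il23r ΔTreg normal libraries) and T cell markers (103 CPM, against 34.1 to 63.3 CPM), whose part in these values was not tested. The labels give this mouse a different cage for its tumor than for its normal colon.

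For Cd27 the tumor effect differed in direction between genotypes, with the tumor lower in 5 of 5 Il23r ΔTreg mice and higher in 3 of 3 WT mice. The difference of the log2 fold changes was -3.78 ± 0.68, with an adjusted p of 0.16 in edgeR and 0.000304 in DESeq2. All alternative settings gave a difference between -4.00 and -3.29.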

How the results depend on the processing

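Tumor against normal colon was stable as a count: 4 to 6 members were called in Il23r ΔTreg mice and 7 or 8 in WT mice over all settings. The count between the tumors was not. It was 4 as reported, 1 with library size as the only scaling, 0 without the tumor library of WT mouse2988 and, in a setting added after seeing the data, 1 without that of WT mouse2989, and it ran from 0 to 4 when each mouse was left out in turn. It was 6 with DESeq2, with only the groups compared, with limma's voom both with a replicate block for the mouse and, added after seeing the data, without one, and with limma on log2 CPM with the cage label as a block (3 without that block). The share of all genes called lower moved too. It was 1.58% as reported, 0.158% with library size only, 3.71% with DESeq2 and 2.54% with only the groups compared. With voom it was 1.89% with the block and 1.93% without. With limma on log2 CPM it was 3% with the cage block and 1.55% without. Leaving out only the tumor library of WT mouse2988 gave 0.0574%, and that of WT mouse2989 0.328%. The cage labels are nested in genotype, and their estimated correlation was negative (-0.0873). The interaction count of 0 became 6 with DESeq2 and stayed at 0 in all other settings, the replicate block included, as did the count of 0 between normal tissues in every setting. The cause of these shifts was not tested. Over the 5 comparisons, 1184 alternative values of the 10 genes gave 1111 on the same side of the threshold, 54 weaker, 19 stronger and 0 called values of opposite sign, while 48 values that were called in neither setting changed sign. With the mouse as a block the calls of Tnfsf4, Icosl, Icos and Cd40 given with the results differed, and no other call of the 10 genes did. For Icos and Cd40 voom without the block made the same calls. Library size as the only scaling moved the median log2 fold change of all genes to 0.295 between the tumors (0.0114 with TMM), 0.2327 between normal tissues (0.0188 with TMM) and 0.1104 in tumor against normal colon of Il23r ΔTreg mice (-0.0013 with TMM). Depth limits Tnfsf4, with 0 to 33 counts per library, and the WT normal libraries of Tnfrsf9 and Cd27, whose lowest counts were 11 and 16.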

Other observations

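The balance of 2 related receptors separated tumor from normal colon in all 16 libraries. The ratio of Icos to Cd28 CPM was 2.06 to 3.09 in Il23r ΔTreg tumors, against 0.324 to 0.791 in Il23r ΔTreg normal colon, and 2.12 to 2.77 in WT tumors, against 0.248 to 0.347 in WT normal colon. The ranges of the Il23r ΔTreg and WT tumors overlapped although both genes were lower in CPM in every Il23r ΔTreg tumor than in every WT tumor. The separation was not particular to Icos. Tnfrsf4 over Cd28 was 1.01 to 2.02 in Il23r ΔTreg tumors, against 0.154 to 0.341 in their normal colon. In WT mice it was 1.12 to 4.06, against 0.185 to 0.219. Tnfrsf9 over Cd28 was 4.0 to 10.9 in Il23r ΔTreg tumors, against 0.116 to 0.301, and 2.15 to 7.39 in WT tumors, against 0.0495 to 0.223. Across the 16 libraries log2 levels of Cd28 correlated with those of Icosl at 0.927 and with those of Icos at 0.2. Which cells carried Cd28 was not tested, so these ratios need not be those of T cells. They share Cd28 and were chosen after the values were seen. They are given as a description, and their size depends on transcript lengths that CPM does not correct for.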
